A study of Mus musculus with 308 samples.

Results

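The genes described here encode the transcription factor NRF2 and the proteins that restrain, partner or relate to it: Nfe2l2 (which encodes NRF2), Keap1, Nfe2l1, Bach1, Maff, Mafg, Mafk, Cul3 and Sqstm1. They were measured as probe sets, groups of short array probes against 1 transcript, and a probe set was counted only where a listed gene was its sole gene symbol. By that rule 7 of the 9 listed genes were measured, of 17097 genes with such a probe set, and they held 13 of the 45141 probe sets of the array: 5 to Cul3, 2 each to Nfe2l2 and Bach1, and 1 each to Nfe2l1, Maff, Mafg and Mafk. Keap1 had no probe set under this rule, and the only one for Sqstm1 was shared with another gene, as was an additional one for Mafg, so neither Keap1 nor Sqstm1 is analysed here. Expression was measured in 308 Affymetrix HT MG-430 PM arrays of 7 tissues from C57BL/6 mice: jejunum, kidney, mesenteric lymph node, spleen, inguinal lymph node, brain and whole blood.

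Per the labels, dosing was daily over 10 days, and organs were collected 12 h later than the final dose. Dimethyl fumarate (DMF), the ester of fumaric acid with a methyl group on both acid groups, was given at 100 mg/kg (DMF100) or 179.2 mg/kg (DMF179.2). Monoethyl fumarate (MEF), given as mixed salts of calcium, magnesium and zinc at 79.2 mg/kg (MEF79.2), carries an ethyl group on a single acid group. By its sample titles, the group called Combination received both agents, 100 mg/kg of DMF and 79.2 mg/kg of the MEF salts. Its summed mass then equals that of DMF179.2. The source names of these samples disagree with the titles, and the titles were followed. A further group is labelled Nav, and what it received is unknown here. The vehicle was 0.8% hydroxypropyl methylcellulose, and each group held 5 to 8 arrays in each tissue. Neither the age nor the sex of the animals is given in the sources used here, and whole tissues were profiled, so fewer cells of a type and less RNA per cell cannot be told apart.

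NRF2 activates genes of antioxidant defence and detoxification. In unstressed cells KEAP1, an adaptor of the CUL3 ubiquitin ligase, binds NRF2 and drives its degradation, and electrophiles such as fumarate esters react with cysteines of KEAP1 and let NRF2 accumulate as protein. NRF2 then binds antioxidant response elements as a dimer with a small MAF protein (MAFF, MAFG or MAFK), while BACH1 occupies the same elements as a repressor that heme dismisses. NFE2L1 is a relative of NRF2 with a part in proteasome gene control, and p62, the product of Sqstm1, can pull KEAP1 into autophagy.

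The sequences before the transcription starts of the small Maf genes and of Nfe2l2 are shown because these genes encode the partners of the dimer that reads antioxidant response elements, and Mafg had more calls under treatment than any other member. The windows come from RefSeq, build GRCm38.p6, run 5′ to 3′ on the strand of the gene, and span 250 bases before to 50 bases after an annotated start. Capitals mark the core letters of the element, TGACNNNGC, searched on both strands.
Mafg, chr11:120633498-120633797, minus strand: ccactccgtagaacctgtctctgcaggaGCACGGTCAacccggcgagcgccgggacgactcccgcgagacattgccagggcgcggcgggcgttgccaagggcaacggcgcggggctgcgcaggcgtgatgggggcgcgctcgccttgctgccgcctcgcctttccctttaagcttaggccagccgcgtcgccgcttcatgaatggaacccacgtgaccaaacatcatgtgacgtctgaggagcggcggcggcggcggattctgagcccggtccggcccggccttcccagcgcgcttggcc
Mafk, chr5:139791286-139791585, plus strand: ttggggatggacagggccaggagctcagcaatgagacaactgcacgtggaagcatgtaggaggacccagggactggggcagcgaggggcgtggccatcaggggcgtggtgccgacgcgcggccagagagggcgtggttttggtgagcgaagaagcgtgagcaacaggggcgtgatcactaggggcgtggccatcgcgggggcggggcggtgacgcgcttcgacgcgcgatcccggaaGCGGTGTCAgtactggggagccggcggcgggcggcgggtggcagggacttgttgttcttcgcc
Maff, chr15:79346371-79346670, plus strand: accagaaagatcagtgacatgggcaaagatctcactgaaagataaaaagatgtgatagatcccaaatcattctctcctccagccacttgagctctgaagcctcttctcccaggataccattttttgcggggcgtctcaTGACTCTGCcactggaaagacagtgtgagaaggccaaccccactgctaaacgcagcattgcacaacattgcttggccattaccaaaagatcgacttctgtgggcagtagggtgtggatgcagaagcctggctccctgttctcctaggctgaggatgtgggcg
Nfe2l2, chr2:75704614-75704913, minus strand: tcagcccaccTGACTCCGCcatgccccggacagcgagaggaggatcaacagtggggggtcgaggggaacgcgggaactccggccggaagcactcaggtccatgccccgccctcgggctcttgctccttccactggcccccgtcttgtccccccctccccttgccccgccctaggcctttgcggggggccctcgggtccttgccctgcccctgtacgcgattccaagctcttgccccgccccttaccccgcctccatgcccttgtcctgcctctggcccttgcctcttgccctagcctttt
In Mafg the letters lay on the opposite strand with their first base at position -222 from the start, and in Mafk on the opposite strand at -13. In Maff they lay on the strand of the gene at -112, in 1 of its 3 windows, and in Nfe2l2 on the strand of the gene at -240. The windows of Keap1, Bach1, Cul3 and Sqstm1, 1 each, and the 5 windows of Nfe2l1 did not hold these letters. Of all 32851 windows in the RefSeq table, 4071 held them, or 12.4%, so the letters are common and a match is a description only.

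The deposited values are log2 expression values. Each tissue had its own lowest value, at which 18.4 to 23.3% of its values lay, so tissues were treated as normalized apart and no level is compared between tissues. The median correlation of an array with the others of its group was between 0.984 and 0.999, and no columns were identical. The labelled tissues carried their markers: 5 of 5 enterocyte markers in jejunum, 6 of 6 tubule markers in kidney and 6 of 6 neuron and glia markers in brain lay above the tissue's median value in every array, as did 6 of 7 B cell and 5 of 5 T cell markers in both nodes, spleen and blood. Differences are given as log2 differences ± standard error from limma, fitted over all probe sets of a tissue above its 50th percentile in at least 5 arrays, and the threshold for a call was an adjusted p (Benjamini-Hochberg) below 0.05. Nothing in the labels says more of how the samples were drawn, so p-values measure the spread between these arrays.

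Few of these probe sets changed under treatment, and Mafg made up most of the calls that rose. Of 91 combinations of a member probe set with a tissue, 85 were tested. The others were Maff in kidney, brain and blood, the second probe set of Bach1 in spleen and brain, and the second of Nfe2l2 in brain. Under DMF179.2, 7 of 85 were called, 4 higher and 3 lower, or 8.24%, beside 12.1% of all tested probe sets. Combination gave 7 calls of 85, 4 higher and 3 lower, or 8.24%, beside a background of 5.86%. MEF79.2 gave 3 calls, or 3.53% beside 2.38%, and DMF100 gave 1, or 1.18% beside 1.78%. Nav gave 22, 7 higher and 15 lower, or 25.9% beside 18.2%. Read against these shares the members' counts were near the background, and the median of their 85 differences was 0.02 under DMF179.2 and -0.01 under Combination. The 28 comparisons of a gene's principal probe set (the one with the highest mean over all arrays) with vehicle, 4 treatments in 7 tissues, held 7 calls for Mafg, 3 for Nfe2l1, 2 for Nfe2l2, 1 each for Bach1 and Cul3 and 0 for Mafk. Maff, tested in 16 such comparisons, had 0.

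Where no member was called, the share of all probe sets called was also small in most tissues. In jejunum it was 0.834% under DMF100 and 0.0638% under MEF79.2, and in the mesenteric node 1.66% under DMF100 and 4.31% under MEF79.2. In spleen it was 1.09% under DMF100 and 0.00844% under Combination. The inguinal node, with 0 of 13 members called, had 1.1% under DMF100, 0.017% under MEF79.2 and 0.017% in Nav. Brain, with 0 of 10, had 0.508% under DMF179.2, 0.337% under MEF79.2 and 5.33% in Nav, and blood, with 0 of 12, had 0.859% under DMF179.2. Between treatments, 0 members were called for DMF179.2 against Combination in jejunum (background 0.00426%), the mesenteric node (0.00423%) and brain (0.047%). The same held for DMF179.2 against DMF100 in kidney (0.764%) and the inguinal node (0.00425%), and for Combination against DMF100 in the mesenteric node (7.36%), the inguinal node (0.0552%) and brain (0.0256%).

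**Figure D1:**
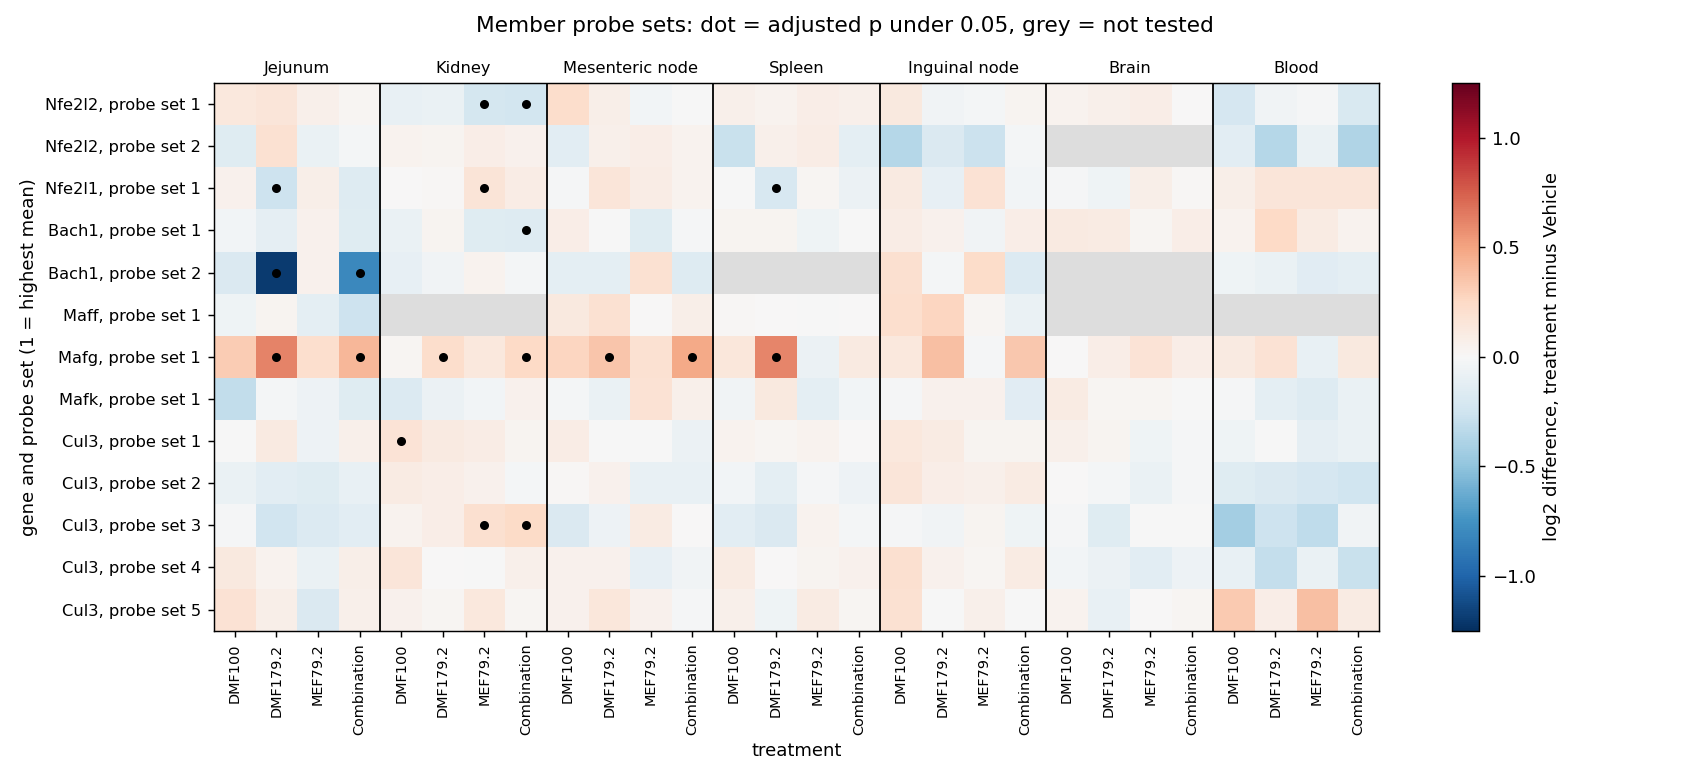
Log2 differences from vehicle of all 13 member probe sets (down the page) in each treatment and tissue (across); colour gives the difference, and marked cells were called at an adjusted p under 0.05. Mafg is the gene with the most marked cells, 7. Nav is not drawn.

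Mafg, which encodes the small MAF partner of NRF2 and of the BACH factors, was higher in jejunum, kidney, mesenteric node and spleen under DMF179.2, by 1.16- to 1.53-fold. Combination raised it in the first 3 of these tissues. DMF100 and MEF79.2 gave no call for Mafg in any tissue.

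In jejunum Mafg lay between 8.94 and 9.42 (median 9.12) in 7 DMF179.2 arrays, against 8.14 to 8.76 (median 8.60) in 8 vehicle arrays. Every DMF179.2 array was above every vehicle array. The difference was 0.62 ± 0.10, or 1.53-fold (limma adjusted p = 4.73e-05), in a contrast in which 29% of all probe sets were called. Combination ran between 8.60 and 9.14 (median 9.04, 8 arrays) and overlapped vehicle, with 7 of its 8 arrays above the vehicle median and a difference of 0.42 ± 0.10 (adjusted p = 0.0148, background 3.14%). That call was lost with the hybridisation controls as a covariate (0.47, adjusted p = 0.197) and when only Combination and vehicle were fitted (adjusted p = 0.0682). DMF100 arrays spanned 8.51 to 9.06 (median 8.84, 6 arrays) and MEF79.2 arrays 8.42 to 9.15 (median 8.64, 7 arrays), both overlapping vehicle, with differences of 0.31 ± 0.11 (adjusted p = 0.202) and 0.21 ± 0.10 (adjusted p = 0.415). Nav, at 8.65 to 9.01 (median 8.83, 7 arrays), was also higher than vehicle, by 0.30 ± 0.10 (adjusted p = 0.0460).

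The hybridisation controls, labelled transcripts added in known amounts, had a lower mean in jejunum under DMF179.2 (11.86 ± 0.06, SD, n = 7) and Combination (11.83 ± 0.04, n = 8) than under vehicle (12.00 ± 0.02, n = 8). Neither treated range overlapped vehicle: 11.78 to 11.95 under DMF179.2 and 11.76 to 11.87 under Combination, against 11.97 to 12.03 in vehicle. A fit with their mean as a covariate therefore cannot separate it from treatment in jejunum. Whether a call of Mafg, Nfe2l1 or Bach1 was kept or lost in that fit decides nothing. In it Mafg was called under DMF179.2 at 0.66 (adjusted p = 0.00376). Leaving out each DMF179.2 or vehicle array in turn, 15 refits, kept the call each time with differences between 0.56 and 0.65. Neutrophil markers were also higher in these jejuna: the summed level of 6 markers was 20.42 to 21.49 under DMF179.2 and 19.98 to 21.06 under Combination, against 19.36 to 20.25 in vehicle, without overlap for DMF179.2. The 1 marker tested rose under both treatments and Ngp was at the lowest value in every array. Their part in the jejunum differences of Mafg, Nfe2l1 and Bach1 was not tested.

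In kidney Mafg spanned 9.04 to 9.50 (median 9.19) in 8 DMF179.2 arrays and 9.06 to 9.43 (median 9.30) in 8 Combination arrays, against 8.91 to 9.11 (median 9.01) in 7 vehicle arrays. The ranges overlapped vehicle, but all arrays of both treated groups lay above the vehicle median. The differences were 0.22 ± 0.06 for DMF179.2 (adjusted p = 0.00626, background 15.7%) and 0.25 ± 0.06 for Combination (adjusted p = 0.00106, background 27.4%). MEF79.2 stood at 8.99 to 9.31 (median 9.14, 7 arrays), 0.13 ± 0.06 above vehicle (adjusted p = 0.134), and DMF100 at 8.92 to 9.25 (median 9.04, 8 arrays), 0.03 ± 0.06 above vehicle (adjusted p = 0.831). Erythroid markers were slightly higher in DMF179.2 kidneys, where 2 of 5 tested markers rose and the summed level of 11 markers was 59.35 to 61.01, against 57.78 to 59.60 in vehicle. In Combination kidneys the sum was 57.85 to 59.68 and 0 of 5 rose. Ank1, Kel and Rhag were at the lowest value in every kidney array, and the part of erythroid cells in the Mafg difference was not tested there. The summed level of 6 tubule markers was 68.55 to 69.23 in vehicle kidneys. It was 67.58 to 68.78 under Combination and 67.08 to 69.08 under DMF179.2. The part of tubule cells in the Mafg differences was also not tested.

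In the mesenteric node Mafg lay between 7.97 and 8.21 (median 8.11) in 6 Combination arrays, between 7.67 and 8.22 (median 7.99) in 8 DMF179.2 arrays, and between 7.51 and 7.88 (median 7.60) in 8 vehicle arrays. Every Combination array was above every vehicle array, and DMF179.2 overlapped vehicle through 1 array, its lowest, while all 8 lay above the vehicle median. Combination was higher by 0.47 ± 0.08 (adjusted p = 8.58e-04, background 10.3%) and DMF179.2 by 0.35 ± 0.08 (adjusted p = 0.00614, background 7.24%). The lowest DMF179.2 array had the lowest correlation with its group in this tissue (0.988), and without it the difference was 0.39 (adjusted p = 0.00314). DMF100 spanned 7.63 to 8.12 (median 7.91, 8 arrays), with all 8 arrays above the vehicle median and a difference of 0.27 ± 0.08 that missed the threshold (adjusted p = 0.0575). MEF79.2 gave 0.19 ± 0.08 (adjusted p = 0.163). Nav arrays, at 7.91 to 8.13 (median 7.98, 7 arrays), also lay wholly above vehicle, by 0.36 ± 0.08 (adjusted p = 3.42e-04). In the same nodes 1 of 3 tested neutrophil markers rose under DMF179.2 and under Combination and 2 of 3 in Nav, with summed levels of 24.96 to 30.31, 25.06 to 26.46 and 23.37 to 33.47, against 22.85 to 25.79 in vehicle. Their part in the Mafg differences was not tested.

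In spleen Mafg lay between 8.63 and 9.26 (median 8.75) in 8 DMF179.2 arrays, against 8.01 to 8.77 (median 8.11) in 8 vehicle arrays. The groups overlapped, with all 8 DMF179.2 arrays above the vehicle median, and the difference was 0.61 ± 0.13, or 1.53-fold (adjusted p = 0.00159, background 31.3%). Combination stood at 8.16 to 8.62 (median 8.32, 8 arrays), 0.11 ± 0.13 above vehicle (adjusted p = 0.808), DMF100 at 8.06 to 8.72 (median 8.36, 8 arrays), 0.14 ± 0.13 above it (adjusted p = 0.680), and MEF79.2 at 7.91 to 8.54 (median 8.16, 7 arrays), at -0.07 ± 0.13 (adjusted p = 0.994). DMF179.2 was thus the single treatment with a call for Mafg in spleen.

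**Figure D2:**
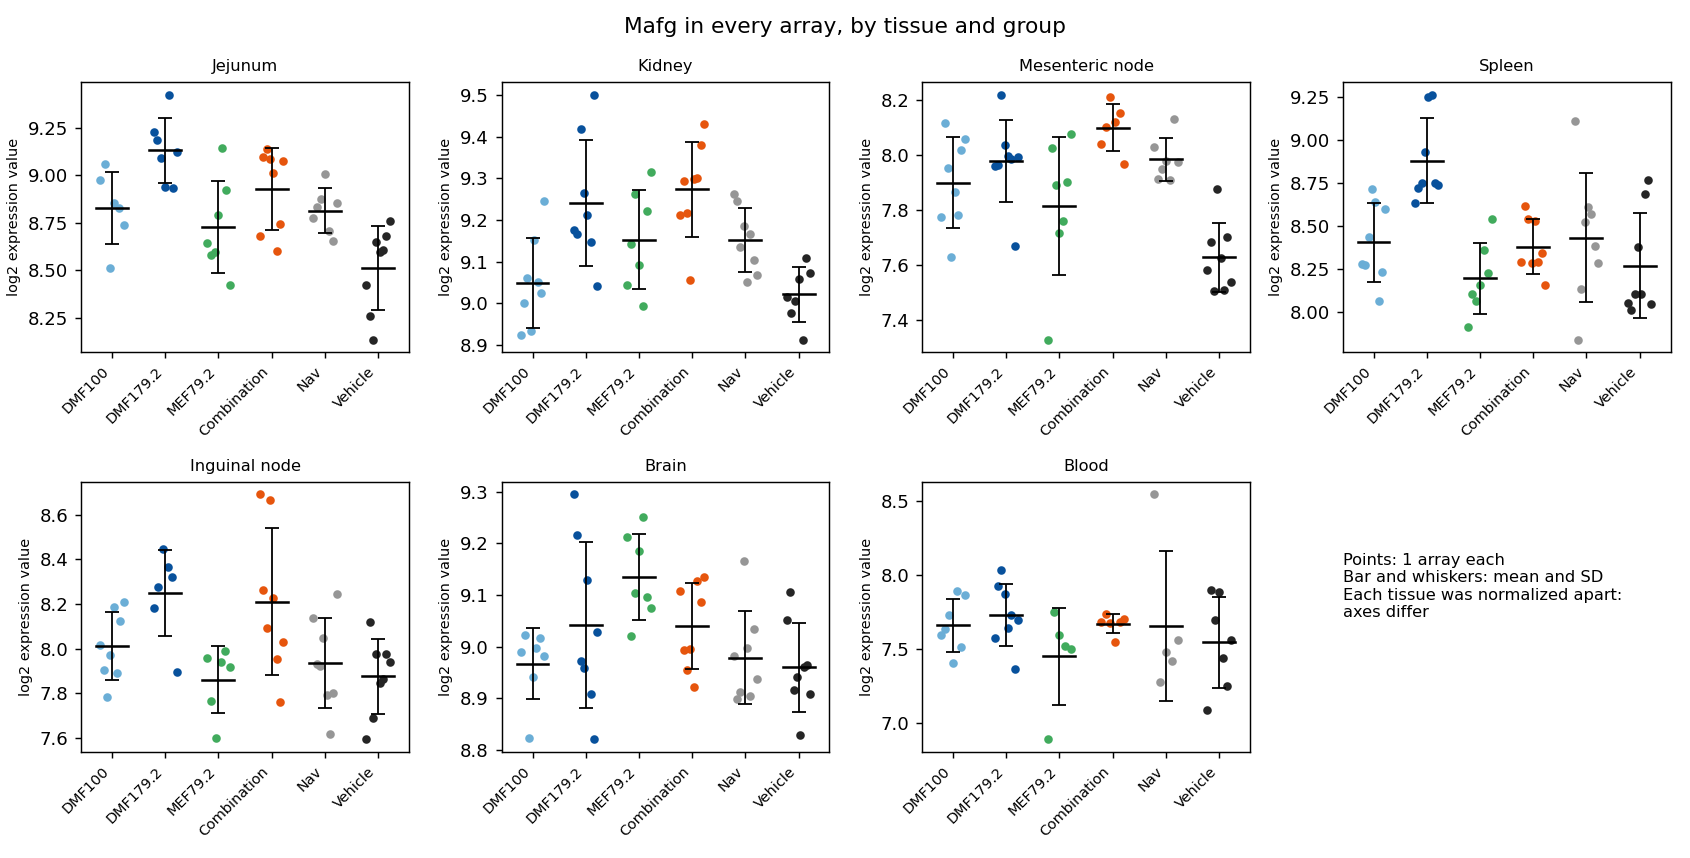
Mafg log2 expression value in every array of all 7 tissues, by group, with bars and whiskers for mean and SD. Each tissue has its own scale. In jejunum all 7 DMF179.2 arrays lie above all 8 vehicle arrays, and in the mesenteric node all 6 Combination arrays do.

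Erythroid transcripts moved with Mafg in spleen. Of 11 tested erythroid markers, 8 rose under DMF179.2 and 0 under the other treatments, and their summed level was 108.66 to 121.56 in DMF179.2 spleens, against 78.14 to 114.92 in vehicle spleens, with no marker at the lowest value in every array. Over 47 spleen arrays, each centred on its group mean, Mafg followed the mean of the 11 markers (Pearson r = 0.72, Spearman rho = 0.70), and a permutation test with 100000 resamples gave p = 1e-05, the smallest it can give, for both. Without the 2 arrays farthest from the median of the markers, r was 0.67. This was the only such relation computed. With the marker mean as a covariate the spleen difference was 0.32 ± 0.10 (adjusted p = 0.0379). The mean difference between 3′ and 5′ probe sets of the actin and Gapdh controls, a sign of RNA integrity, was also larger in DMF179.2 spleens (1.39 ± 0.11, SD, n = 8) than in vehicle spleens (1.20 ± 0.07, n = 8), and with it as a covariate the Mafg difference was 0.39 ± 0.14 and no longer called (adjusted p = 0.228). The same covariate left Mafg called under DMF179.2 in jejunum (0.57, adjusted p = 1.28e-04), kidney (0.24, adjusted p = 0.00497) and mesenteric node (0.38, adjusted p = 0.00108).

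**Figure D3:**
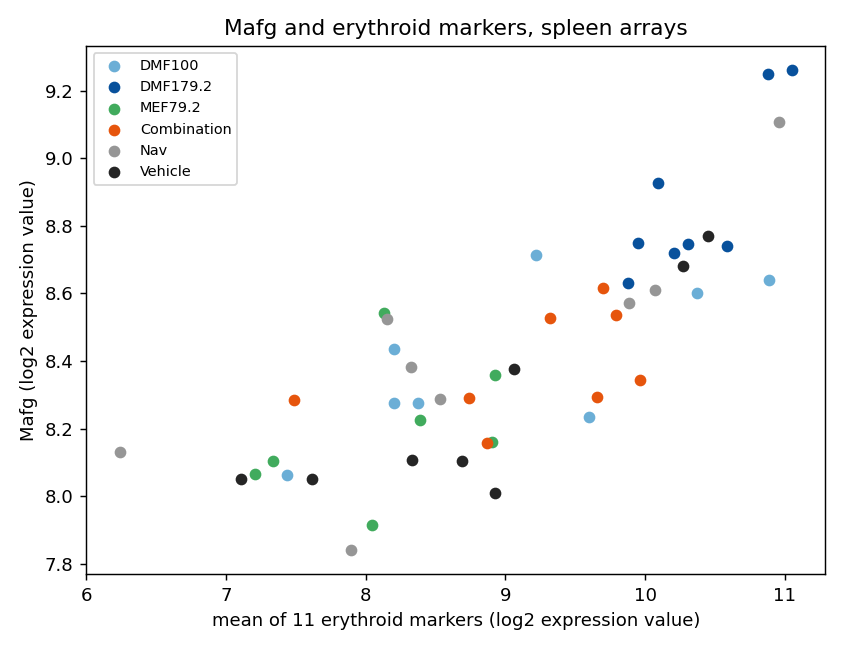
Mafg (log2 expression value, y axis) against the mean of 11 erythroid markers (log2 expression value, x axis), 1 point per spleen array, coloured by group. The 8 DMF179.2 arrays occupy the upper right. In the other groups Mafg also tends to be higher at higher erythroid means, with exceptions. Examples are Combination replicate 38 (erythroid mean 9.96, Mafg 8.34) and DMF100 replicate 15 (9.59, 8.24).

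Outside jejunum, kidney, mesenteric node and spleen Mafg was not called. In the inguinal node it lay between 7.90 and 8.44 (median 8.30) in 6 DMF179.2 arrays and between 7.76 and 8.69 (median 8.16) in 8 Combination arrays, against 7.59 to 8.12 (median 7.90) in 8 vehicle arrays, and these groups overlapped. The differences were 0.37 ± 0.11 for DMF179.2 (interval 0.15 to 0.60) and 0.33 ± 0.10 for Combination (interval 0.12 to 0.54), with adjusted p of 0.159 and 0.267 in a tissue where 0.204 and 0.0425% of probe sets were called. The hybridisation controls, described above for jejunum, were lower than in vehicle by 0.13 under DMF179.2 and by 0.12 under Combination in this node. In brain the largest difference was under MEF79.2, at 9.02 to 9.25 (median 9.10, 7 arrays) against 8.83 to 9.11 (median 8.95, 8 arrays) in vehicle. It overlapped vehicle and gave 0.18 ± 0.05 (adjusted p = 0.103). In blood the 4 treatments gave between -0.10 and 0.18, and each group overlapped vehicle. The 5 MEF79.2 blood arrays read 6.89, 7.50, 7.52, 7.59 and 7.75, against 7.09 to 7.90 (median 7.56) in 7 vehicle arrays.

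Direct comparisons separated the doses and mixtures for Mafg in few tissues. DMF179.2 was above DMF100 in spleen by 0.47 ± 0.13 (adjusted p = 0.0435, background 2.67%), in overlapping ranges, and above Combination there by 0.50 ± 0.13 (adjusted p = 0.0278, background 4.44%), with every DMF179.2 array above every Combination array. Both spleen calls were lost with the erythroid mean as a covariate (0.23, adjusted p = 0.291, and 0.28, adjusted p = 0.179) and with the 3′ minus 5′ difference as a covariate (0.30, adjusted p = 0.385, and 0.38, adjusted p = 0.171). The call against DMF100 was also lost with no filter (adjusted p = 0.0764) and when only these groups were fitted (adjusted p = 0.108). In kidney Combination was above DMF100 by 0.22 ± 0.06 (adjusted p = 0.00665, background 13.3%), and DMF179.2 was not separated from DMF100 (0.19 ± 0.06, interval 0.08 to 0.30, adjusted p = 0.0762). In jejunum DMF179.2 exceeded DMF100 by 0.30 ± 0.11 (interval 0.08 to 0.53, adjusted p = 0.0569). At equal summed mass, DMF179.2 and Combination differed by 0.20 in jejunum (interval -0.00 to 0.41), by -0.03 in kidney (interval -0.14 to 0.08) and by -0.12 in the mesenteric node (interval -0.29 to 0.05), with no call. The MEF salts and DMF100 were given at different doses and are not compared. The 3 genes whose pattern was most like Mafg over 308 arrays, centred on tissue means, among 7844 genes tested in every tissue were Eif2ak1 (r = 0.70), Grina (r = 0.69) and Hagh (r = 0.68).

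Against vehicle, the other small MAF genes did not repeat the calls of Mafg. Mafk had no call against vehicle under any treatment, with 28 differences between -0.31 and 0.19, of which 6 had an unadjusted limma p under 0.05. In jejunum it lay between 9.29 and 9.82 (median 9.66) in 7 DMF179.2 arrays, between 9.16 and 9.58 (median 9.33) in 6 DMF100 arrays, and between 9.43 and 9.76 (median 9.67) in 8 vehicle arrays. DMF100 was therefore the low group, at -0.31 from vehicle (adjusted p = 0.0551), and DMF179.2 exceeded DMF100 by 0.29 ± 0.08 (adjusted p = 0.0216, background 13%), in overlapping ranges. That call was lost when only these groups were fitted (adjusted p = 0.0569). In kidney Mafk was 7.21 to 7.42 (median 7.29) in 8 Combination arrays, against 6.89 to 7.22 (median 7.10) in 8 DMF100 arrays. The difference was 0.23 ± 0.06 (adjusted p = 0.00953), and it was lost with the hybridisation controls as a covariate (0.15, adjusted p = 0.107). Maff, tested in jejunum, both nodes and spleen, gave no call in 16 comparisons with vehicle, with differences between -0.26 and 0.27 and 4 unadjusted limma p under 0.05. Its spleen values sat low on the scale, at 5.65 to 5.87 in all treated and vehicle arrays. The spleen median was 5.70 in each of these groups, so the lack of a call there says little. In the mesenteric node 5.85 was both the highest vehicle value and the DMF100 median.

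Nfe2l2 itself was not called under either dose of DMF in any tissue. In kidney it was lower under the MEF salts: its principal probe set (1416543_PM_at) lay between 10.00 and 10.24 (median 10.04) in 7 MEF79.2 arrays and between 9.81 and 10.18 (median 10.10) in 8 Combination arrays, against 10.14 to 10.44 (median 10.28) in 7 vehicle arrays. The ranges overlapped, and no array of either treated group was above the vehicle median. MEF79.2 fell by 0.22 ± 0.07 (adjusted p = 0.0268, background 12%) and Combination by 0.23 ± 0.07 (adjusted p = 0.00971). The MEF79.2 call was lost with the hybridisation controls as a covariate (-0.15, adjusted p = 0.0736). Those controls were 0.08 higher in MEF79.2 kidneys and 0.06 higher in Combination kidneys than in vehicle kidneys. Kidneys given DMF100 (9.99 to 10.34, median 10.18, 8 arrays) and DMF179.2 (10.06 to 10.38, median 10.18, 8 arrays) were each 0.09 below vehicle, with adjusted p of 0.426 and 0.413. The other probe set of Nfe2l2 (1457117_PM_at) did not repeat the decrease: in kidney it differed by 0.09 under MEF79.2 and 0.05 under Combination, and it was called in 0 of its 24 comparisons, 5 of them with an unadjusted limma p under 0.05. In jejunum the principal probe set was 0.15 above vehicle under DMF179.2 (adjusted p = 0.0964).

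Nfe2l1, the NRF2 relative, was lower under DMF179.2 in jejunum and spleen and higher under MEF79.2 in kidney. In jejunum it was 8.92 to 9.19 (median 9.12) in 7 DMF179.2 arrays, 9.20 to 9.64 (median 9.39) in 6 DMF100 arrays and 9.17 to 9.48 (median 9.33) in 8 vehicle arrays. Every DMF179.2 array lay below every DMF100 array and below the vehicle median. DMF179.2 fell by 0.26 ± 0.06 against vehicle (adjusted p = 0.00332) and by 0.31 ± 0.07 against DMF100 (adjusted p = 0.00521). The comparison with vehicle was lost with the hybridisation controls as a covariate, at the same size (-0.26, adjusted p = 0.0571). That covariate cannot be separated from treatment in jejunum, as given for Mafg. Combination was lower by 0.16 without a call (adjusted p = 0.132). In spleen all 8 DMF179.2 arrays (9.42 to 9.67, median 9.57) lay below all 8 vehicle arrays (9.70 to 9.88, median 9.78), a decrease of 0.20 ± 0.06 (adjusted p = 0.0118). That call was lost with the erythroid mean (-0.15, adjusted p = 0.108) and with the 3′ minus 5′ difference (-0.08, adjusted p = 0.611) as covariates. In kidney MEF79.2 arrays (10.80 to 10.95, median 10.88, n = 7) exceeded the vehicle median without exception, against 10.55 to 10.84 (median 10.73, n = 7) in vehicle, by 0.16 ± 0.05 (adjusted p = 0.0205, and 0.0539 with the hybridisation controls as a covariate). The genes most like Nfe2l1 over the 308 arrays were Pfn1 (r = 0.70), Pfdn2 (r = 0.66) and Lrrc41 (r = 0.65).

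**Figure D4:**
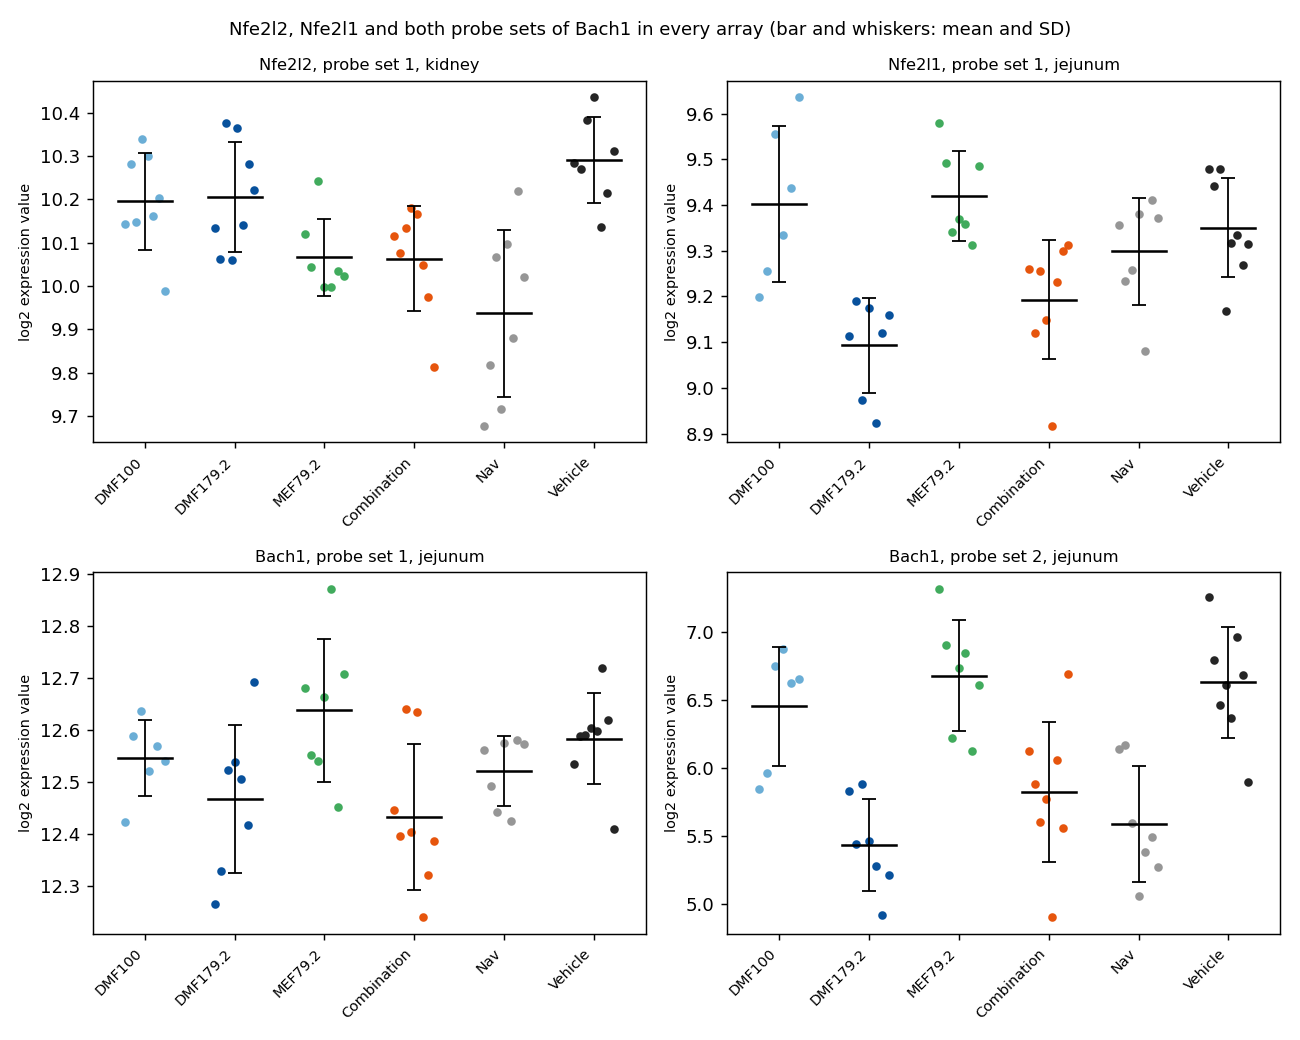
Log2 expression values in every array for Nfe2l2 in kidney, Nfe2l1 in jejunum and both probe sets of Bach1 in jejunum, by group, with bars and whiskers for mean and SD. The second probe set of Bach1 falls in DMF179.2, Combination and Nav jejunum, while the principal probe set overlaps vehicle in each group.

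Bach1, the repressor of antioxidant response elements, gave unlike readings in jejunum from its 2 probe sets. The second probe set (1449311_PM_at) lay between 4.92 and 5.88 (median 5.44) in 7 DMF179.2 arrays and between 4.90 and 6.69 (median 5.83) in 8 Combination arrays, against 5.90 to 7.26 (median 6.64) in 8 vehicle arrays. All DMF179.2 arrays were below all vehicle arrays, while Combination overlapped vehicle with 1 of 8 arrays above its median. DMF179.2 fell by 1.20 ± 0.22, or 2.29-fold (adjusted p = 1.43e-04), and Combination by 0.80 ± 0.21, or 1.75-fold (adjusted p = 0.0275). DMF179.2 was also lower than DMF100, which lay at 5.84 to 6.87 (median 6.64, 6 arrays), with a difference of -1.02 ± 0.23 (adjusted p = 0.00564). The DMF179.2 decrease against vehicle was called in all 15 refits without 1 array, between -1.30 and -1.11. With the hybridisation controls as a covariate it was -0.72 and not called (adjusted p = 0.0924), and the Combination value was -0.22 (adjusted p = 0.817). Neither value separates treatment from those controls, whose ranges in these groups did not overlap vehicle in jejunum. The Combination call was also lost with no filter (adjusted p = 0.0533) and when only Combination and vehicle were fitted (adjusted p = 0.0780). The principal probe set (1440831_PM_at) differed by -0.12 under DMF179.2 (adjusted p = 0.146) and by -0.15 under Combination (adjusted p = 0.127) in the same arrays. The second probe set exceeded the filter level in 5 of 44 inguinal and 14 of 44 mesenteric node arrays, and it was called in no other tissue under treatment. B cell markers, a sign of lymphoid tissue in the jejunum samples, varied widely within groups: their mean was 3.62 to 6.49 over DMF179.2 arrays, 3.97 to 7.05 over Combination arrays and 3.66 to 6.12 over vehicle arrays, and 0 of 6 were called in either comparison.

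In kidney the principal probe set of Bach1 was 9.82 to 10.33 (median 10.22) in 8 Combination arrays and 10.25 to 10.48 (median 10.36) in 8 DMF179.2 arrays, against 10.12 to 10.46 (median 10.34) in 7 vehicle arrays. Combination fell by 0.16 ± 0.06 against vehicle (adjusted p = 0.0418), and DMF179.2 was 0.20 ± 0.06 above Combination (adjusted p = 0.0284, background 10.2%). The ranges overlapped in both comparisons. Each call was lost under 5 of 11 alternatives, among them no filter (adjusted p = 0.0698 and 0.0503).

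Cul3, the scaffold of the ubiquitin ligase that KEAP1 recruits, gave calls under treatment in kidney alone, and these came from different probe sets. The principal probe set (1422794_PM_at) was 10.75 to 11.12 (median 10.83) in 8 DMF100 arrays, against 10.60 to 10.80 (median 10.69) in 7 vehicle arrays, higher by 0.17 ± 0.05 (adjusted p = 0.0375, background 7.29%). This call was lost under 4 alternatives, among them no filter (adjusted p = 0.0596). The probe set 1434718_PM_at was higher under Combination, at 8.44 to 8.61 (median 8.50, 8 arrays), and under MEF79.2, at 8.39 to 8.63 (median 8.48, 7 arrays), against 8.12 to 8.43 (median 8.34, 7 arrays) in vehicle. All Combination arrays lay above all vehicle arrays, by a narrow margin. The differences were 0.24 ± 0.06 (adjusted p = 0.00193) and 0.20 ± 0.06 (adjusted p = 0.0176), and Combination was also 0.19 ± 0.05 above DMF100 (adjusted p = 0.0163). The last call was lost when only these groups were fitted (adjusted p = 0.0716) and with the hybridisation controls as a covariate (adjusted p = 0.0608). The principal probe set differed by 0.03 under Combination (adjusted p = 0.661) and 0.09 under MEF79.2 (adjusted p = 0.258), so the probe sets of Cul3 did not move together. The remaining 3 probe sets of Cul3 had no call under treatment.

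The Nav group, set against the same vehicle arrays, differed from vehicle at more member probe sets than any treatment did, in tissues where it also differed widely in general. In the mesenteric node 7 of 13 were called (background 46.5%), in kidney 6 of 12 (45.3%), in spleen 6 of 12 (18%) and in jejunum 3 of 13 (12.3%). Nfe2l2 fell by 0.35 ± 0.07 in Nav kidneys (9.68 to 10.22, median 9.95, 8 arrays, against 10.14 to 10.44 in vehicle, adjusted p = 4.06e-05) and by 0.32 ± 0.08 in Nav mesenteric nodes (8.82 to 9.08, median 8.88, 7 arrays, against 9.08 to 9.67 in vehicle, adjusted p = 0.00123). Mafk rose in Nav kidney by 0.24 ± 0.06 (adjusted p = 0.00185) and in the mesenteric node by 0.31 ± 0.08 (adjusted p = 0.00170). Bach1 fell in the mesenteric node by 0.36 ± 0.06 with no overlap (adjusted p = 2.00e-06). Cul3 fell at 3 probe sets in the mesenteric node and at 4 in spleen. The hybridisation controls were 0.19 higher in Nav than in vehicle kidneys and 0.18 higher in the mesenteric node, and with their mean as a covariate the 22 calls of Nav fell to 12. The controls of Nav did not overlap vehicle in the mesenteric node or jejunum, so the covariate cannot be separated from group there.

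Responses to the 4 treatments differed among the 7 tissues, by the test of the interaction itself, for 5 of the 10 member probe sets tested in every tissue: Mafk (adjusted p = 1.37e-04), Mafg (2.45e-04), Bach1 (0.00120), Nfe2l1 (0.00919) and Nfe2l2 (0.0276). Of all 16206 probe sets so tested, 43.7% were called, so this share is near the background. The 5 probe sets of Cul3 were not called, with adjusted p between 0.0558 and 0.830.

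Known targets of NRF2 rose most often in kidney, jejunum and the mesenteric node under DMF179.2. The list of targets was chosen with earlier results of these data known, so its counts only describe these arrays. Kidney had 34 tested targets, of which 30 rose under DMF179.2 and 26 under Combination, 25 under DMF100 and 20 under MEF79.2, and in jejunum 26, 21, 15 and 4 of 32 rose. In the mesenteric node 24 of 30 rose under DMF179.2 and 17 under Combination. In spleen 15 of 30 rose and 2 fell under DMF179.2, and 6 of 29 rose in the inguinal node, 8 of 27 in brain and 4 of 26 in blood. Over the 7 tissues 113 of 208 such tests were higher and 4 lower under DMF179.2, and 25 were higher and 0 lower under MEF79.2. Of all tested probe sets 12.1% were called under DMF179.2, 5.86% under Combination, 2.38% under MEF79.2 and 1.78% under DMF100. Under DMF179.2 the share was 31.3% in spleen, 29% in jejunum, 15.7% in kidney and 7.24% in the mesenteric node. It was 0.204% in the inguinal node, 0.508% in brain and 0.859% in blood. Under Combination, DMF100 and MEF79.2 the kidney shares were 27.4, 7.29 and 12%. The jejunum shares were 3.14, 0.834 and 0.0638% in that order, and the mesenteric node had 10.3% under Combination. Nqo1, a quinone reductase, rose under DMF179.2 in all 7 tissues, including those in which Mafg was not called: by 1.35 ± 0.12 in the inguinal node (adjusted p = 3.97e-10), by 0.90 ± 0.09 in brain (adjusted p = 2.92e-08) and by 0.84 ± 0.20 in blood (adjusted p = 0.0341). Cbr3, a carbonyl reductase, rose by 5.42 ± 0.28 in jejunum. The tests of each treatment use the same vehicle arrays.

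The lists of other genes around NRF2 are given here with limma adjusted p in parentheses and are to be read against the background. They too were chosen with earlier results of these data known. Of all probe sets 12.1% were called under DMF179.2, 5.86% under Combination, 2.38% under MEF79.2 and 1.78% under DMF100. By tissue the shares under DMF179.2 were 31.3% in spleen, 29% in jejunum, 15.7% in kidney and 7.24% in the mesenteric node. Under Combination and MEF79.2 they were 27.4 and 12% in kidney, and 10.3 and 4.31% in the mesenteric node. Of 63 tests of genes for the KEAP1 and CUL3 ligase and other NRF2 degradation (9 genes tested per tissue), 4 were higher and 4 lower under DMF179.2 and 0 were called under the other 3 treatments. Fbxw11, an F-box protein of the alternative ligase for NRF2, fell under DMF179.2 in spleen by 0.24 ± 0.05 (adjusted p = 8.04e-04) and in jejunum by 0.20 ± 0.05 (0.00213). Its relative Btrc rose in spleen by 0.48 ± 0.14 (0.0128) and in jejunum by 0.40 ± 0.12 (0.0118). Of 34 tests of KEAP1 binding proteins, 3 were higher and 1 lower under DMF179.2, 1 higher and 1 lower under Combination, 1 higher and 2 lower under MEF79.2 and 0 called under DMF100. Dpp3, a peptidase that competes with NRF2 for KEAP1, rose in kidney under Combination by 0.36 ± 0.07 (7.30e-05), DMF179.2 by 0.25 ± 0.07 (0.00579) and MEF79.2 by 0.26 ± 0.07 (0.00882). Ikbkb, a kinase of the NF-kappaB pathway that KEAP1 binds, fell in the same kidneys, under Combination by 0.20 ± 0.06 (0.00632), DMF179.2 by 0.23 ± 0.06 (0.00336) and MEF79.2 by 0.23 ± 0.06 (0.00745). Of 16 tests of other CNC and BACH factors 2 were higher and 2 lower under DMF179.2. Bach2 fell in DMF179.2 jejunum by 1.08 ± 0.22 (5.50e-04), Nfe2l3 fell in kidney under DMF179.2 by 0.33 ± 0.10 (0.0208) and MEF79.2 by 0.42 ± 0.10 (0.00614). In DMF179.2 spleen Nfe2l3 rose, by 0.46 ± 0.16 (0.0312), as did Nfe2, the erythroid relative of NRF2, by 1.34 ± 0.50 (0.0370), in the spleens where erythroid markers were higher. Of the autophagy partners of p62, 4 tests of 77 were higher and 6 lower under DMF179.2. Gabarapl2 was among those that rose, in the mesenteric node under Combination (0.37 ± 0.07, 8.02e-04), DMF179.2 (0.33 ± 0.06, 0.00101) and MEF79.2 (0.26 ± 0.06, 0.0184). Becn1, a part of the complex that starts autophagosomes, fell in the same node under Combination (-0.27 ± 0.07, 0.0132) and MEF79.2 (-0.29 ± 0.07, 0.0174) and in kidney under Combination (-0.29 ± 0.07, 0.00230). Map1lc3a fell in DMF179.2 jejunum (-0.39 ± 0.08, 7.29e-04).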

How the data were processed

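Total RNA of 308 tissue samples was hybridised to Affymetrix arrays. The deposited table holds log2 expression values made by the authors. Per the submitters' processing notes RMA, GCRMA, R 2.11.1 and limma 3.4.5 were named, without their role or order, and no coordinates were taken from the deposited table. Values were used as deposited. In each tissue limma 3.58.1 (R 4.3.3) fitted 1 mean per group over 6 groups to the 23306 to 23685 non-control probe sets that passed the filter (5 or more arrays over the 50th percentile of the tissue), with Benjamini-Hochberg adjustment over all of them and intervals at 95%. The interaction test covered the 16206 probe sets tested in every tissue. Gene names came from the platform annotation: 28898 probe sets had 1 symbol, 551 had several and 15588 were not listed. The members and the gene lists were chosen with earlier results of these data known. Named genes were all members, plus list genes with the smallest adjusted p among those called, and the genes most like a member with at least 3 calls. For arrays, the number per group limits the precision. The script was tested on simulated data. Alternatives changed the filter, normalization, centring, prior variance, weights, groups fitted and covariates.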

Additional observations from a re-analysis of the deposited data

Results flagged for a closer look

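Mafg in the mesenteric node had 1 DMF179.2 array far below the other 7: replicate 23 read 7.67, the nearest array 7.96 and the highest 8.22. It was the only such array in the 30 groups checked, and chance gives about 1 in 20 groups. The difference without it is given with the Mafg values of that node. The responses to treatment differed among the 7 tissues by the interaction test for Mafk (adjusted p = 1.37e-04), Mafg (2.45e-04), Bach1 (0.00120), Nfe2l1 (0.00919) and Nfe2l2 (0.0276), from limma over the treated and vehicle arrays.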

How the results depend on the processing

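Among the recomputed values of single probe sets, 364 kept their direction and their side of the threshold, 36 lost their call and 0 reversed. The 364 include the refits without 1 array, run only for calls of DMF179.2 against vehicle, in which every call was kept. All losses lay in the other alternatives. Counts of called member probe sets moved as follows, and the cause was not tested. The share of all probe sets called under each setting is not given beside them. A general rise or fall in calls therefore cannot be told from one in the members. With 1 probe set per gene only principal probe sets were fitted, so fewer member probe sets were tested. DMF100 (1 call) gave 0 with no filter and with only the 2 groups compared, 4 with array weights, and 2 with the filter at the 70th percentile, 1 probe set per gene, the arrays of lowest correlation left out, or the 3′ minus 5′ covariate. DMF179.2 (7) gave 12 with array weights. MEF79.2 (3) gave 5 with array weights. Combination (7) gave 4 with only the 2 groups compared and 4 with the hybridisation controls as a covariate. Nav (22) gave 11 with 1 probe set per gene and 12 with that covariate. DMF179.2 against DMF100 (4) gave 9 with array weights and 2 with only the 2 groups. Combination against DMF100 (3) gave 5 with array weights and 1 with the hybridisation covariate. DMF179.2 against Combination (2) gave 0 with the 3′ minus 5′ covariate and 1 with no filter, array weights, only the 2 groups, or the hybridisation covariate. The covariates of erythroid mean and 3′ minus 5′ difference were chosen after seeing the data. The labels do not say that a replicate number marks the same animal in different tissues. Over 21 tissue pairs the median correlation of same-numbered arrays' deviations was 0.0593 to 0.281, and 609 of 866 pairs were over 0.1. In 167 of 866 cases an array correlated best with its own number. Unrelated numbers would give about 1 such case per tissue pair. Each number belonged to the same group in every tissue. Not every pair was over 0.1, so the block was not adopted, but that rule cannot show that the animals differed. These values hint at shared animals, in which case arrays of different tissues are not independent in the interaction test. With the replicate block, 7 of 10 interaction tests were called, 2 probe sets of Cul3 being added, against 5 without it, and 63.4% of all probe sets, against 43.7%. Groups of 5 to 8 arrays limit the precision.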
